A study of Zea mays with 2 samples.

Results

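Anthocyanins are the purple and red pigments that colour the aleurone, the outermost cell layer of the maize endosperm. Their synthesis begins when chalcone synthase joins coumaroyl-CoA to malonyl-CoA units. A chain of enzymes then turns the chalcone into a coloured, glucosylated anthocyanin, which is moved into the vacuole. In the aleurone these enzyme genes are switched on together by a MYB protein encoded by c1 and a bHLH protein encoded by r1, and kernels with non-functional alleles of either regulator are colourless. The labels do not name the line in which dek44 was kept or its alleles at c1 and r1.

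The genes examined were the 9 classical anthocyanin loci of the aleurone, chosen by their gene identifiers: the 7 enzyme genes c2, chi1, pr1, a1, a2, bz1 and bz2 and the 2 regulators c1 and r1. Of these, 7 had values among the 41406 gene models of the deposited data, namely 5 of the enzyme genes and both regulators. The genes a1 (GRMZM2G026930, dihydroflavonol reductase) and a2 (GRMZM2G345717, anthocyanidin synthase) were not analysed here. The steps between the flavanone and the anthocyanidin were therefore represented by pr1 alone.

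Endosperm RNA of kernels aged 15 days after pollination had been sequenced from wild type and from dek44, a mutant with defective kernels. The Dek44 gene is known to encode a protein of the mitochondrial ribosome. Its own transcript was not examined, because no identifier could be paired with its name. The labels list 1 library per genotype although the series text speaks of triplicates, and no source used here says whether a library pools several kernels or plants. The values are RPKM, reads scaled to the length of the gene model and to library size, which makes levels of different genes comparable per length. The wild-type library held 20861135 reads and the dek44 library 22612657, as recovered from the values. Since there are no replicates, no p-value is given and every difference is one between these libraries. Intervals are 95% exact intervals for a gene model of 1000 bases at that depth. They cover counting error only and would be narrower for a longer model and wider for a shorter one.

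Most of the anthocyanin genes were at low levels or listed at 0 in both libraries. Only 3 of the 7, chi1, bz1 and bz2, reached an RPKM of 1 in a library, whereas 72.8% of all gene models did. The other 4, the entry enzyme gene c2, the hydroxylase gene pr1 and the regulators c1 and r1, stayed below 1 in both. Summed over the 7 genes, RPKM was 20.2 in dek44 and 16.7 in wild type. The makeup of that sum differed, as chi1 gave 75.7% of it in wild type and 36.9% in dek44. The changes of the 3 genes above an RPKM of 1 went in both directions.

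**Figure D1:**
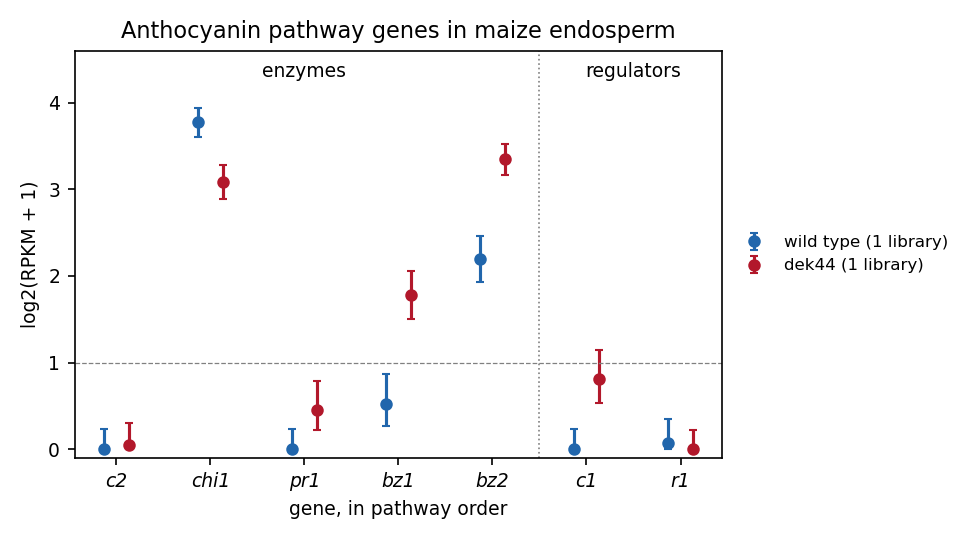
Level of each measured anthocyanin gene on a log2(RPKM + 1) scale in the wild-type library (blue) and the dek44 library (red), in the order of the pathway with the regulators at the right. Bars are 95% counting intervals for a gene model of 1000 bases and the dashed line marks an RPKM of 1; chi1 is lower in dek44, bz1 and bz2 are higher, and c2, pr1, c1 and r1 lie under the line in both libraries.

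At the entry of the pathway, the RPKM of the chalcone synthase gene c2 (GRMZM2G422750) was 0 in wild type and 0.0347 in dek44. For a model of 1000 bases that corresponds to 0.786 reads in dek44, which is under the detection floor of 3 reads, so no fold is given. In wild type that floor is an RPKM of 0.144, and the 95% exact interval of a count of 0 reaches 0.177. The paralogous chalcone synthase gene whp1, which can take the place of c2 in some tissues, was not analysed here. A c2 transcript was thus not detectable above the floor at this depth in either library.

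Chalcone isomerase, which closes the ring of the chalcone to give the flavanone, was the most abundant of the measured genes in wild type. Its gene chi1 (GRMZM2G155329) had an RPKM of 12.7 in wild type (interval 11.2 to 14.3) and 7.47 in dek44 (6.38 to 8.68). The intervals of the libraries did not overlap. This was 1.70-fold lower in dek44 (1.39 to 2.07), a log2 ratio of -0.69 on the log2(RPKM + 1) scale. Most expressed genes lay on the other side: of the 30136 expressed genes, those that reached an RPKM of 1 in a library, 93.8% had a higher log2 ratio than chi1, and their median was 0.62. Among the 8789 expressed genes with a wild-type RPKM within 2-fold of that of chi1, 6.78% had a lower ratio. In rank, chi1 stood above 78.1% of all gene models in wild type and above 60.2% in dek44.

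Flavonoid 3'-hydroxylase adds the hydroxyl group that separates purple cyanidin pigments from red pelargonidin ones, and is encoded by pr1 (GRMZM2G025832). Its RPKM was 0.372 in dek44 and 0 in wild type. For a model of 1000 bases, 0.372 corresponds to 8.41 reads. The RPKM in dek44 was 2.59 times that of a floor of 3 wild-type reads. That figure leaves out counting error in dek44, and the 95% interval of the ratio began at 1.68. A shorter model lowers the figure in proportion. The level in dek44 was above 18.6% of all gene models.

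The last steps of the pathway had higher RPKM in dek44. The gene bz1 (GRMZM2G165390) encodes the UDP-glucose flavonoid glucosyltransferase, which stabilises the pigment by attaching glucose. RPKM of bz1 was 0.441 in wild type (0.204 to 0.832) and 2.44 in dek44 (1.84 to 3.18), with no overlap of the intervals. The plain ratio was 5.54-fold higher in dek44 (2.73 to 12.6) and the log2 ratio with the added 1 was 1.26. Because bz1 was under an RPKM of 1 in wild type, it counted as expressed through dek44 alone, as did 5095 of the 30136 expressed genes. A gene that does so is higher in dek44 by construction. Among the 3134 expressed genes with a wild-type RPKM within 2-fold of that of bz1, 53.0% were at least 2-fold higher. A lower ratio than that of bz1 was found in 61.4% of them.

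The gene bz2 (GRMZM2G016241) encodes a glutathione S-transferase needed to bring the anthocyanin into the vacuole. Its RPKM was 9.16 in dek44 (7.96 to 10.5) and 3.58 in wild type (2.81 to 4.49), again without overlap. The plain ratio was 2.56-fold higher in dek44 (1.96 to 3.38) and the log2 ratio was 1.15. Among the 8866 expressed genes with a wild-type RPKM within 2-fold of that of bz2, 29.2% were at least 2-fold higher and 76.3% had a lower ratio than bz2.

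Other genes of the enzyme family to which bz2 belongs were also higher in dek44. Of the 20 expressed genes named as glutathione S-transferases in the reference table, 8 counted as expressed through dek44 alone. The 12 with an RPKM of at least 1 in wild type, as bz2 had, are therefore described. Past 2-fold, 11 were higher and 0 lower, against 25.4% higher among all genes with that wild-type level. Their median log2 ratio was 2.44, beside 0.50 for all such genes, and 11 of the 12 had a higher ratio than bz2.

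**Figure D2:**
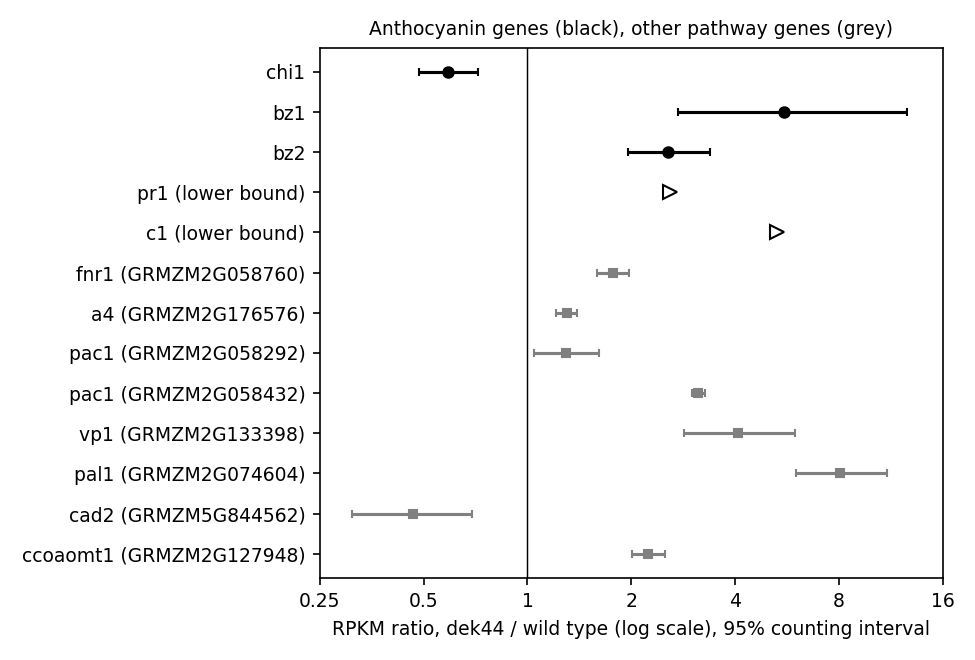
RPKM ratio of dek44 to wild type on a log axis. Black circles are anthocyanin genes with a ratio and grey squares other genes of flavonoid and phenylpropanoid metabolism. Open triangles, labelled lower bound, are pr1 and c1 against a floor of 3 wild-type reads, without counting error in dek44. Bars are 95% counting intervals for a gene model of 1000 bases; chi1 and cad2 lie below 1, and the other genes shown lie above it.

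Both regulators were below an RPKM of 1 in each library. The MYB gene c1 (GRMZM2G005066) was listed at 0 in wild type and had an RPKM of 0.759 in dek44 (0.443 to 1.21). For a model of 1000 bases this was 17.2 reads against none. The RPKM in dek44 was 5.28 times that of the floor of 3 wild-type reads, and the 95% interval of the ratio began at 3.85. Of the 4877 gene models at 0 in wild type, 15.6% had a higher RPKM in dek44 than c1. The bHLH gene r1 (GRMZM5G822829) was at 0 in dek44 and at 0.0524 in wild type, 1.09 reads for a model of 1000 bases, so that both libraries were under the floor. The floor in dek44 is an RPKM of 0.133, and the 95% exact interval of a count of 0 there reaches 0.163. For models of 1000 bases, c1 was thus above the floor in dek44 and not in wild type, and r1 in neither library.

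Counted together, 3 of the 7 genes (c2, pr1 and c1) were listed at 0 in wild type and above 0 in dek44, as were 7.19% of all gene models. One, r1, was at 0 in dek44 and above 0 in wild type, against 1.92% of all gene models. Of the 4877 gene models at 0 in wild type, 2976 were above 0 in dek44. Both c2 and r1 were under the floor in each library. RPKM was higher in dek44 for 5 of the 7, against 73% of all gene models.

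Of the 3 expressed members, bz1 and bz2 were at least 2-fold higher on the log2(RPKM + 1) scale and none at least 2-fold lower. The same thresholds were passed by 31.6% and 3.7% of all expressed genes. Of the members, chi1 and bz2 reached an RPKM of 1 in wild type, and of these bz2 was at least 2-fold higher, against 25.4% of all genes with that wild-type level. The members' median log2 ratio was 1.15, that of bz2, beside 0.62 for all expressed genes. Both medians include genes that counted as expressed through dek44 alone, bz1 among them. Without such genes the order was reversed: the median of chi1 and bz2 was 0.23, beside 0.50 for all genes with that wild-type level. These counts depend on the scaling of the libraries. Zeins, the storage proteins of the endosperm, made up 21.7% of the RPKM sum of the wild-type library and 3.68% of that of dek44. With the zeins left out of the library sums, bz1 was at 1.18, bz2 at 0.92 and chi1 at -0.97. With dek44 RPKM multiplied by 0.588, so that the median over expressed genes became 0, bz1 was at 0.76 and bz2 at 0.48, both within 2-fold. On that scale chi1 was at -1.34 and became the 1 member at least 2-fold lower, against 10.1% of all expressed genes, while 12% were at least 2-fold higher. The direction of each of the 3 genes did not change.

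**Figure D3:**
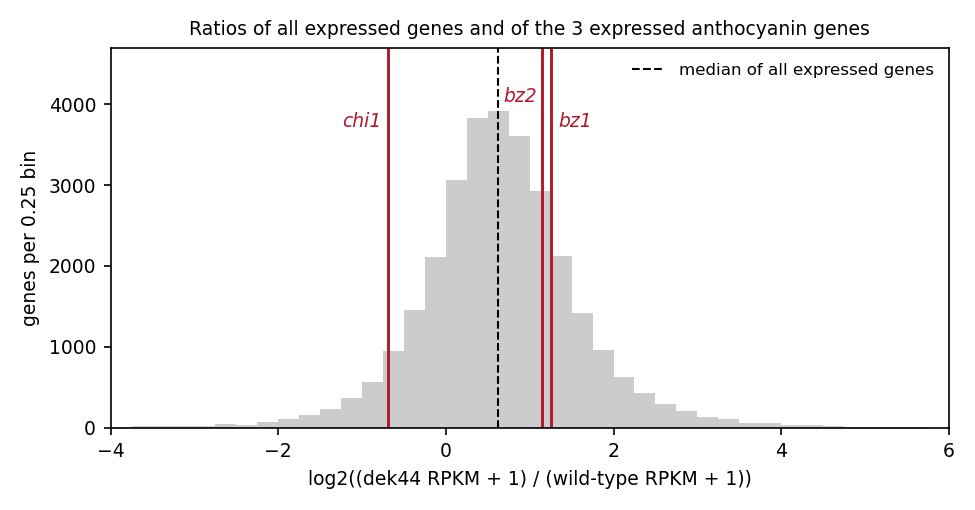
Number of expressed genes per bin of 0.25 of the log2 ratio of dek44 to wild type, with 1 added to each RPKM. The dashed line is the median of all 30136 expressed genes, 0.62, and the red lines mark chi1 at -0.69, bz2 at 1.15 and bz1 at 1.26; chi1 lies in the lower flank and the other genes lie above the median.

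Ratios between genes of the same library do not depend on that scaling. The RPKM of bz2 was 0.283 times that of chi1 in wild type and 1.23 times that of chi1 in dek44, a change of 4.34-fold (95% exact conditional interval 3.07 to 6.07). The RPKM of bz1 was 0.0348 times that of chi1 in wild type and 0.327 times in dek44, a change of 9.38-fold (4.51 to 22.5). Between the late genes, bz1 relative to bz2 changed by 2.16-fold (1.02 to 5.34), from 0.123 to 0.266. The last 2 enzyme genes thus gained on chalcone isomerase in dek44 beyond counting error. A higher log2 ratio than that of chi1 was, however, found in 93.8% of all expressed genes, so such a gain was common. The gene bz1 counted as expressed through dek44 alone and was therefore higher in dek44 by construction.

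The order of the levels differed between the libraries. In wild type chi1 was highest, then bz2, bz1 and r1, and c2, pr1 and c1 were at 0. The intervals of chi1, bz2 and bz1 did not overlap with each other, while that of bz1 overlapped with that of r1. In dek44 bz2 and chi1 came first with overlapping intervals, then bz1, then c1, pr1 and c2, and r1 was at 0. The interval of pr1 overlapped with those of both c1 and c2, and that of c2 with that of r1.

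**Figure D4:**
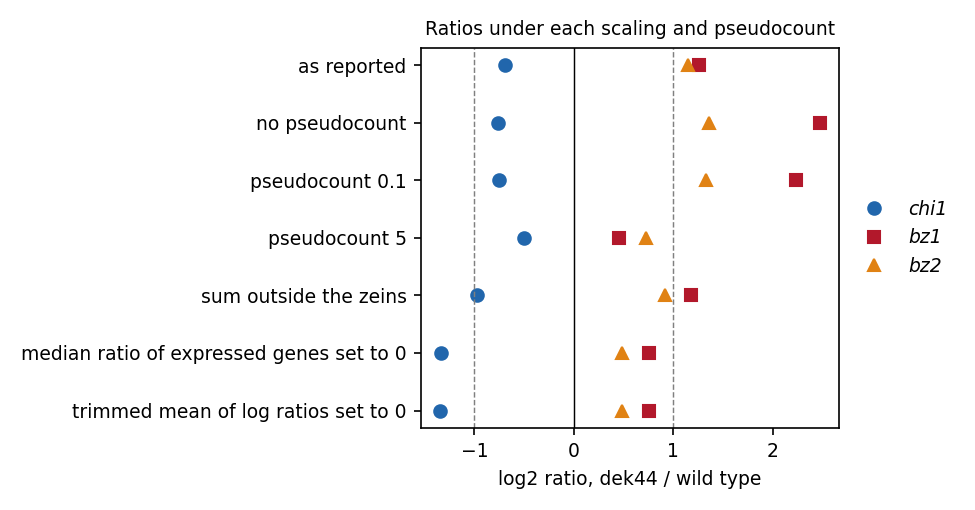
Log2 ratio of dek44 to wild type for chi1 (circles), bz1 (squares) and bz2 (triangles) as reported and under other pseudocounts and scalings of the libraries. Dashed lines mark 2-fold; chi1 stays below 0 and bz1 and bz2 above 0 under each setting, but which of them lie past 2-fold changes, with chi1 past it at -1.34 when the median ratio is set to 0.

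Other genes of the pathway were sought by 49 symbols of flavonoid enzymes, pigment regulators and phenylpropanoid enzymes, of which only a few could be paired with measured identifiers. The flavanone 3-hydroxylase gene f3h and the regulators pl1 and p1 were not analysed here. All 8 genes found had an RPKM of at least 1 in wild type. Past 2-fold, 4 were higher, beside 25.4% of all genes with that wild-type level. Past 2-fold in the other direction were 0, beside 1116 of the 25041 genes with that wild-type level. The median log2 ratio of the 8 genes was 0.96. After centring on the median of all expressed genes, 1 was higher, 1 lower and the list's median was 0.22.

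Upstream of the flavonoids, the gene named pal1 (GRMZM2G074604), for phenylalanine ammonia-lyase, which starts phenylpropanoid synthesis, had 2.41 RPKM in wild type and 19.5 in dek44. It was 8.08-fold higher (6.02 to 11.04), and its log2 ratio was also past 2-fold, at 1.87, after centring. On the lignin side, the caffeoyl-CoA methyltransferase gene ccoaomt1 (GRMZM2G127948) was 2.24-fold higher (2.005 to 2.51), with 21.3 RPKM in wild type and 47.8 in dek44. The cinnamyl alcohol dehydrogenase gene cad2, also named bm1 (GRMZM5G844562), was 2.14-fold lower in plain RPKM (1.45 to 3.22). Its RPKM was 3.79 in wild type against 1.77 in dek44, and the log2 ratio was -0.79. After centring its log2 ratio was -1.23, past 2-fold.

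Among the regulators, vp1 (GRMZM2G133398), the B3 factor that activates c1 in the developing aleurone, was at 1.80 RPKM in wild type and 7.36 in dek44, a ratio of 4.08 (2.85 to 5.98). Its log2 ratio was 1.58, and 0.93 after that centring. The WD40 gene pac1, whose product works with the MYB and bHLH proteins, shared its name with a pair of identifiers. GRMZM2G058292, which also carries the name WD40.1, was at 6.93 in wild type and 8.98 in dek44, 1.30-fold higher (1.04 to 1.62). GRMZM2G058432 was at 121 and 380, 3.13-fold higher (2.99 to 3.27), and may not be the pigment gene. The remaining genes were a4 (GRMZM2G176576), at 68.8 and 89.3, and fnr1 (GRMZM2G058760), at 24.4 and 43.1, a name also used for ferredoxin-NADP reductase. Both were within 2-fold.

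The aleurone is a minor part of the endosperm, and in whole tissue fewer cells of a type and less RNA per cell cannot be told apart. All 7 aleurone markers found were detected in both libraries. Of these, vp1 was at least 2-fold higher and nkd1 (81.3 in dek44, 171 in wild type) at least 2-fold lower, with a median log2 ratio of 0.37, and their summed RPKM was 626 in dek44 and 587 in wild type. Endosperm storage markers were detected in both libraries, 4 of 6 at least 2-fold lower in dek44, with summed RPKM of 1127 and 10441. The counts of lower storage and aleurone markers stand beside 3.7% of all expressed genes, and the aleurone median beside 0.62. For markers of other cell types, at least 2-fold higher were 2 of 5 expressed embryo markers and 7 of 7 expressed basal transfer layer markers. So were 2 of 2 of the embryo-surrounding region, beside 31.6% of all expressed genes. The embryo markers past 2-fold, glb1 (GRMZM2G067402) and ocl1, counted as expressed through dek44 alone, at 0.0832 and 0.617 RPKM in wild type. So did mrp1 of the basal transfer layer, at 0.368. Such genes are higher in dek44 by construction. The basal transfer layer gene betl1 stayed below an RPKM of 1 in both libraries. Summed RPKM in dek44 and wild type was 511 and 403 for embryo markers, 2957 and 377 for the basal transfer layer and 118 and 8.27 for the embryo-surrounding region. The late embryo gene emb5 was at 0 in both, and ole1 stands in both the embryo and the aleurone list. Markers of green tissue and pericarp were not analysed here. The part of these other cell types in the anthocyanin gene values was not tested.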

How the data were processed

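RPKM values had been deposited by the authors for 41406 gene models, 1 column per genotype, from endosperm of 15 days after pollination. The submitters' processing notes name the tool Bowtie 0.12.2 and the build B73 RefGen_v3. How reads were counted, with which gene lengths, on which strand and with which rule for multiple matches is not given in the sources, so reads of paralogs and overlapping genes may be shared.

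Library totals were recovered from the RPKM values. Among 489 genes with the same low read number in both libraries, the recovered total gave a gene length within 0.02 of a whole number for 73.8%, against 4% by chance. The share was 33.1% with that total doubled and 41.3% with it tripled. Larger shared factors are not excluded. On simulated data of 41406 genes, 3 of 4 pairs of totals were recovered. Read numbers use a nominal model of 1000 bases.

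Ratios are log2((dek44 + 1)/(wild type + 1)), which understates changes of low genes. A gene was called expressed if it reached an RPKM of 1 in a library, and expressed genes were counted from 2-fold. Fold intervals are Clopper-Pearson, those of levels exact Poisson, both at 95%. Against 0 reads a floor of 3 reads was used. The trimmed mean left out 30% of genes on each side. All 9 members are described; other genes were named when a listed symbol matched. Of the identifiers, 16689 (40.3%) matched the RefSeq gene table (assembly Zm-B73-REFERENCE-NAM-5.0), used for names only. Members and lists were chosen with earlier results of these data known. Python 3.11.15, pandas 2.3.3, numpy 2.4.6 and scipy 1.17.1 were used.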

Additional observations from a re-analysis of the deposited data

How the results depend on the processing

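Under each pseudocount and scaling tried, chi1 was lower and bz1 and bz2 higher in dek44, so no direction reversed. Past 2-fold, the 2 higher members became 1 with a filter at RPKM 5, with a filter at RPKM 1 in wild type (chosen after seeing the data) or with zeins left out of the library sum, and 0 with a pseudocount of 5, a threshold of 4-fold, the median ratio set to 0 or the trimmed mean set to 0. The 0 lower members became 1 with the median or the trimmed mean set to 0. Log2 ratios moved beyond counting error for chi1 (-1.34 with either centring), for bz2 (0.48 with either, 0.72 with a pseudocount of 5) and for bz1 (2.47 with no pseudocount, an alternative chosen after seeing the data). The members' median of 1.15 was 0.48 with either centring, 0.45 with a pseudocount of 5, 0.46 over all 7 genes without a filter and 0.23 with either of those filters, which keep only chi1 and bz2. Of the other pathway genes, the 4 higher became 1 with either centring or at 4-fold, and the 0 lower became 1 with either centring, a pseudocount of 0.1 or the sum outside the zeins; without fnr1 and the second pac1 identifier, also chosen afterwards, 3 were higher and 0 lower. Over all expressed genes, 9529 higher and 1116 lower became 3609 and 3029 after centring on the median, 3585 and 3047 on the trimmed mean, 4192 and 543 with a pseudocount of 5 and 2084 and 260 at 4-fold, and 1720 were lower with the sum outside the zeins. Centring and rescaling move every gene by 1 factor, and a larger pseudocount shrinks low genes by construction. No paired analysis was possible because there is 1 library per genotype, and for the same reason leaving out replicates was not run. Depth limits c2 and r1 above all: under 3 reads for a model of 1000 bases, a difference in them was not detectable.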

Other observations

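Among genes whose names were picked after the data were seen, the gene named 4CL (GRMZM2G075333), for 4-coumarate-CoA ligase, which makes the coumaroyl-CoA that chalcone synthase uses, was at 0.374 RPKM in wild type and 3.32 in dek44. It was 8.87-fold higher (95% counting interval 4.246 to 21.6), and its log2 ratio of 1.65 was 1.10 with the median of all expressed genes set to 0. The 4CL gene counted as expressed through dek44 alone and is therefore higher by construction. Of the 2662 expressed genes with a wild-type RPKM within 2-fold of its own, 56.3% were at least 2-fold higher. A lower ratio than that of 4CL was found in 74.4% of them. The gene pal1, which was above an RPKM of 1 in wild type, was 8.08-fold higher, while c2 was under the floor in both libraries. A gene named dfr1 (GRMZM2G004683) was at 0.241 in wild type and 0.401 in dek44, a ratio of 1.66 with an interval of 0.502 to 6.27 that includes 1.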
